A study of Mus musculus with 6 samples.

Results

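The genes of cell division and DNA replication were followed here in RNA from mouse alveolar macrophages. They were picked by symbol from the table of FPKM values (sequenced fragments scaled to transcript length and library depth). The symbols are those of the minichromosome maintenance (Mcm), origin recognition (Orc), replicative polymerase (Pola, Pold, Pole), A, B, D and E cyclin, Cdk, Cdkn and Cdc series, together with Pcna, Mki67, Top2a, Rrm1 and Rrm2. The rule found 85 of the 10539 listed genes. It reads names and not values, so it also takes in genes that share a name with the cell cycle but not its work, such as Cdc42. Cdc42, its partners and some other Cdc genes are described apart at the end. Others, such as Cdc37, Cdc73 and Cdkn2aip, are counted within the roles.

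Both groups consist of C57BL/6 lung alveolar macrophages that overexpress the transcription factor CEBPβ. The 3 libraries of the group CEBPβ come from such cells, and the 3 of the group CEBPβ-A from such cells after an adenovirus with A20, the product of Tnfaip3 and a ubiquitin-editing enzyme that restrains NF-κB signalling. The sources used here do not give the virus received by the CEBPβ cells, the way CEBPβ was overexpressed, or the age and number of mice. Nothing says that the libraries come from separate mice or cultures, so p-values measure how these libraries spread, and that may be technical.

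Division is driven by cyclin-dependent kinases (CDKs), which act when bound to a cyclin and are held back by CDK inhibitors. In G1, a D-type cyclin with Cdk4 or Cdk6 phosphorylates the retinoblastoma protein, which releases E2F factors that switch on the genes of replication. Origins are marked by the origin recognition complex, loaded with the MCM helicase and copied by polymerases held on DNA by the PCNA clamp, and cyclins A and B with Cdk1 then carry the cell through G2 and mitosis. Alveolar macrophages are known as long-lived cells that maintain themselves in the lung largely by slow local division.

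All 12 alveolar macrophage markers on the list were present, Siglecf at 101 to 106 FPKM and Marco at 539 to 746 FPKM. None passed the adjusted threshold, but the list was not level between the groups. Of the 12 log2 fold changes 9 were positive, beside 46.6% over all tested genes. Fabp1, Car4, Ear2, Pparg and Cd68 (5 of 12) lay higher in every CEBPβ-A library, beside 7.62% of all listed genes. Itgax lay lower (background 9.04%). The log2 fold changes of Fabp1, Car4 and Ear2 were 0.76, 0.52 and 0.35, with unadjusted p-values from limma of 0.00224, 0.00326 and 0.00825. Over all tested genes 8.18% had an unadjusted p under 0.05. Of markers of other cells, 4 of 7 for neutrophils were listed and summed to 260 to 318 FPKM in CEBPβ and 348 to 381 in CEBPβ-A, mostly S100a8. S100a8 lay higher in every CEBPβ-A library (log2 fold change 0.35, limma unadjusted p = 0.0109), and the other listed neutrophil markers overlapped. For epithelium 3 of 9 were listed and summed to 29.6 to 40.1 and 34.3 to 66.4 FPKM, mostly Scgb1a1, highest in CEBPβ-A replicate 3. For monocytes and interstitial macrophages 5 of 8 summed to 7.11 to 7.82 and 5.70 to 6.73 FPKM. Of these, C1qa (log2 fold change −0.36, limma unadjusted p = 0.0122) and the untested Cx3cr1 lay lower in every CEBPβ-A library, and the others overlapped. Markers of T, NK and B cells, endothelium, fibroblasts and erythroid cells were not analysed here. The part of these markers and of other cells in the results was not tested. Tnfaip3 stood at 8.76, 17.7 and 19.2 FPKM in CEBPβ and at 7.94, 15.5 and 7.32 in CEBPβ-A, so its level does not mark the libraries labelled CEBPβ-A (log2 fold change −0.53 with an SE of 0.34 and limma adjusted p = 0.606). CEBPβ-A replicate 3 stood apart, with a first principal component score of 25.65 where the others had −11.74 to −0.095. Some values, though not all of those that move, are also given without this library.

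No gene of the set passed the test between the groups. Of the 85, 74 had a mean of at least 1 FPKM and were tested with limma on log2(FPKM + 1), and 0 of these 74 had a Benjamini-Hochberg adjusted p under 0.05, beside 0.052% of the 9617 genes tested. An unadjusted p under 0.05 was reached by 3 of 74 members (4.05%) and by 8.18% of all tested genes. Cdkn2c and Cdc42ep3 had higher means in CEBPβ-A (background 3.76% in that direction), and Cdk6 had a lower one (background 4.42%). Without CEBPβ-A replicate 3 the count was 2, and under the other alternatives it ran from 1 to 5, with 0 members past the adjusted threshold in any of them. The median log2 fold change, CEBPβ-A minus CEBPβ, was −0.020 over the tested members and −0.013 over all tested genes, and 35 of 74 were positive.

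The groups did not overlap for 17 of the 85 members (20%), against 16.7% of all listed genes. In 8 of them every CEBPβ-A library lay above every CEBPβ library (background 7.62%), and in 9 below (background 9.04%). Both shares lie near the background. The 95% interval of the log2 fold change stayed within 0.5 either way for 64 of the 74 tested members, and within 1 for 73. On this scale 1 is a factor of 2 in FPKM + 1, which for low genes is a larger factor in FPKM. The exception at the wider bound was Ccnd3.

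**Figure D1:**
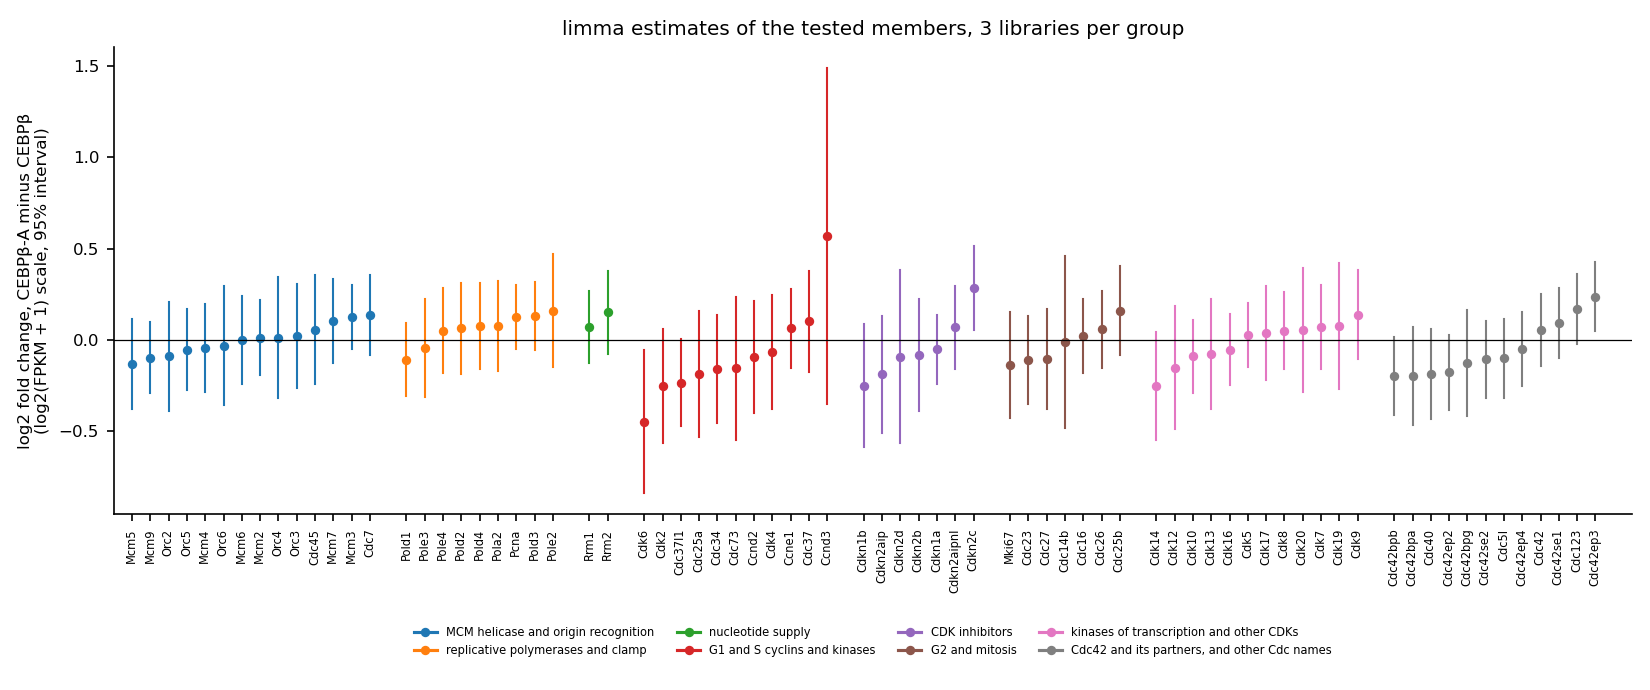
Log2 fold change (CEBPβ-A minus CEBPβ, log2(FPKM + 1) scale) of the 74 tested members by role, as points with 95% intervals from limma, 3 libraries per group. Most intervals cross 0, those of Cdk6, Cdkn2c and Cdc42ep3 do not, and that of Ccnd3 is the widest, from −0.35 to 1.49.

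Levels differed widely between members, from Cdc42 at a mean of 214 FPKM to Mcm8 at 0.455. The median member had 3.61 FPKM, below the 6.52 of the median listed gene. Of the 85, 11 had a mean under 1 FPKM, 38 from 1 to 5, 28 from 5 to 20 and 8 above 20. The threshold of 1 FPKM divided genes of similar level: Ccnb2 (0.990) and Cdkn2a (0.957) lay just under it, and Rrm2 (1.09) and Cdc7 (1.18) just over it.

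**Figure D2:**
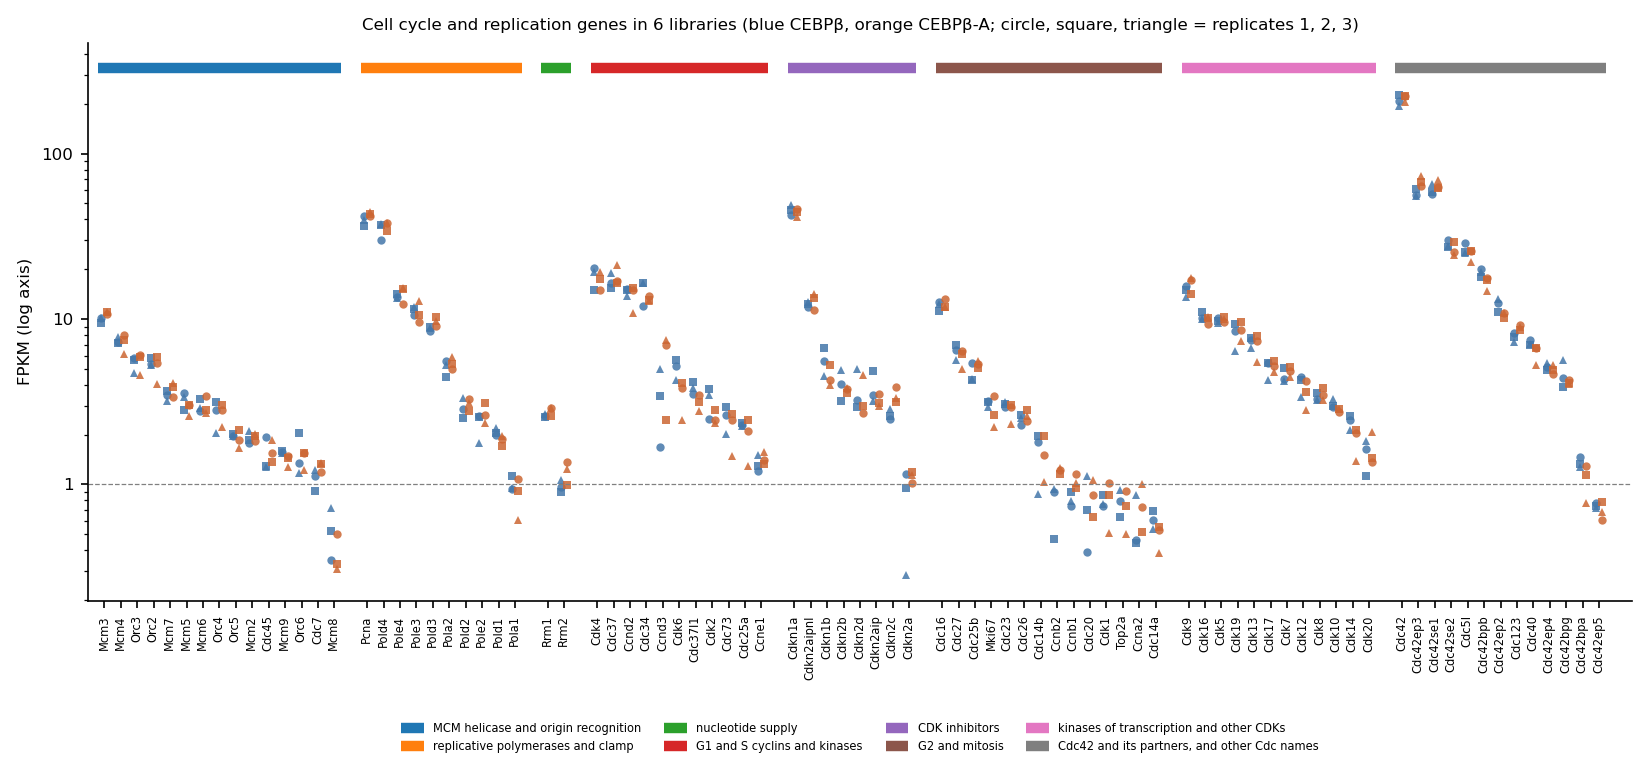
FPKM (log axis) of the 85 members in each library, ordered by level within each role, with CEBPβ in blue and CEBPβ-A in orange. The dashed line marks the 1 FPKM needed for testing, and 7 of the 14 genes of G2 and mitosis lie under it on average.

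Among the genes that license and open origins, 14 of 15 were tested, 7 had positive and 7 negative log2 fold changes, and the extremes were −0.13 for Mcm5 and 0.14 for Cdc7. The 6 subunits of the replicative helicase, which join in equal numbers in the complex, did not have equal transcript levels. Mcm3 was the most abundant at 9.43 to 11.1 FPKM over the 6 libraries, followed by Mcm4 at 6.19 to 7.96 FPKM, and these ranges did not overlap. Mcm7, Mcm5 and Mcm6 followed at 3.18 to 4.11 FPKM, 2.60 to 3.597 FPKM and 2.72 to 3.41 FPKM. Those ranges overlap one another and lie below that of Mcm4. Mcm2 was lowest at 1.78 to 2.11 FPKM, and the Mcm3 level was 4.82 to 5.84 times that of Mcm2 in each library. FPKM divides by gene length, but the sources used here do not say how the authors set that length, and the order of subunits rests on it. Exons of Mcm7 also overlap Ap4m1 and Cops6 on the other strand.

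Mcm3 was the helicase gene whose groups separated upward, at 10.2, 9.43 and 10.2 FPKM in CEBPβ replicates 1, 2 and 3 and at 10.7, 11.1 and 10.96 in CEBPβ-A replicates 1, 2 and 3. Every CEBPβ-A library was above every CEBPβ library, and the difference did not pass (10.9 ± 0.165 FPKM in CEBPβ-A against 9.94 ± 0.437 in CEBPβ, SD, 3 libraries each, and log2 fold change 0.13 with an SE of 0.076 and limma adjusted p = 0.599). Mcm8 and Mcm9 form a separate helicase of recombination repair. Mcm9 separated downward at 1.57, 1.59 and 1.54 FPKM in CEBPβ and at 1.49, 1.44 and 1.28 in CEBPβ-A. This difference did not pass either (log2 fold change −0.097 with an SE of 0.084 and limma adjusted p = 0.680). Cdc7, the kinase that activates loaded helicases, stood at 1.12, 0.910 and 1.22 FPKM in CEBPβ and at 1.19, 1.33 and 1.35 in CEBPβ-A, with overlapping groups. The origin recognition genes Orc2, Orc3, Orc4, Orc5 and Orc6 had log2 fold changes of −0.090, 0.021, 0.013, −0.052 and −0.030, and the value for Cdc45, which joins the helicase at the fork, was 0.057. The log2 fold changes of Orc2, Orc3 and Orc4 were 0.043, 0.13 and 0.11 without CEBPβ-A replicate 3.

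Of the polymerase and clamp genes, 9 of 10 were tested, with 7 positive and 2 negative log2 fold changes. Pcna, the sliding clamp of replication and repair, was the highest of this group and stood at 42.1, 36.7 and 39.5 FPKM in CEBPβ replicates 1, 2 and 3 and at 42.1, 43.0 and 44.3 in CEBPβ-A replicates 1, 2 and 3. The lowest CEBPβ-A value and the highest CEBPβ value were nearly equal, and the difference of the means did not pass (43.2 ± 1.12 FPKM in CEBPβ-A against 39.4 ± 2.68 in CEBPβ, SD, 3 libraries each, and log2 fold change 0.13 with an SE of 0.075 and limma adjusted p = 0.596). Pseudogenes of Pcna are annotated, with which it may share reads. The accessory subunit Pold4 of polymerase δ, at 30.2 to 38.0 FPKM, was 15.2 to 20.2 times the level of the catalytic subunit Pold1 in the same library. Exons of Pold4, and those of Pole2, overlap another protein-coding gene on the same strand, with which reads may be shared. Pold1 stood at 1.98, 2.04 and 2.19 FPKM in CEBPβ and at 1.87, 1.71 and 1.97 in CEBPβ-A, with every CEBPβ-A library below every CEBPβ library (log2 fold change −0.11 with an SE of 0.087 and limma adjusted p = 0.658). Its partner Pold3 stood at 8.48, 8.95 and 8.85 FPKM in CEBPβ and at 9.12, 10.2 and 9.77 in CEBPβ-A and was separated the other way (log2 fold change 0.13 with an SE of 0.081 and limma adjusted p = 0.599). In polymerase ε the histone-fold subunits Pole3 and Pole4 had means of 11.1 and 13.99 FPKM and Pole2 had 2.50. In polymerase α the catalytic subunit Pola1 had a mean of 0.934 FPKM, and was not tested, and its partner Pola2 had 5.24. Pold2, the second subunit of polymerase δ, had a mean of 2.98 FPKM and a log2 fold change of 0.065.

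**Figure D3:**
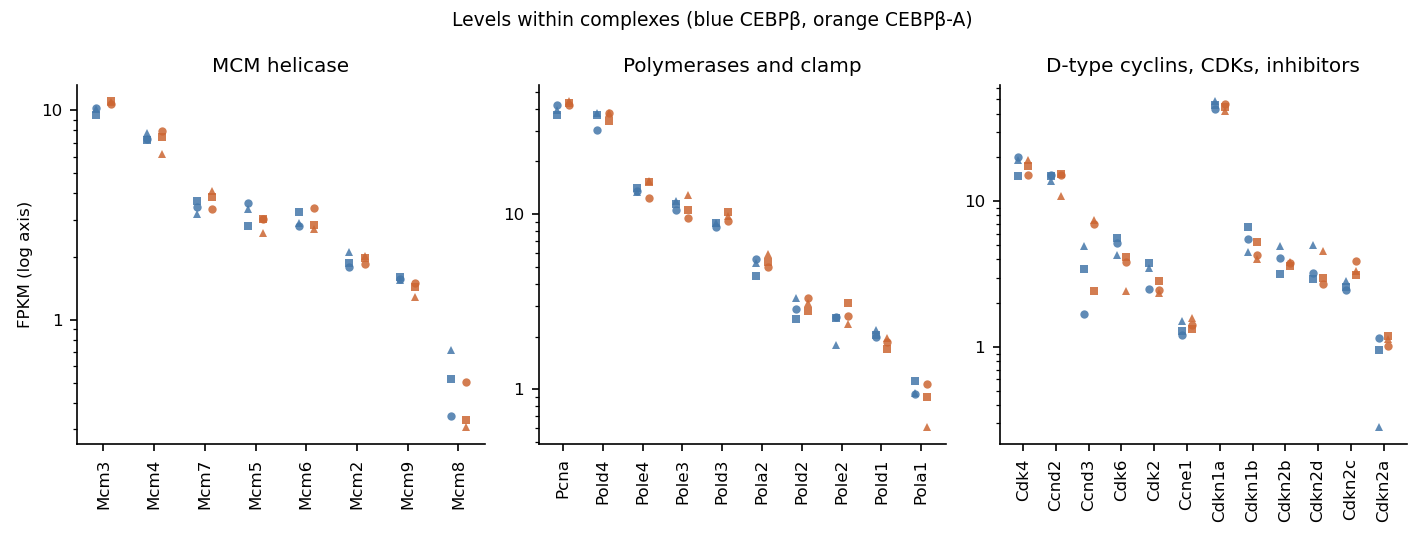
FPKM (log axis) of helicase subunits, polymerase subunits with the clamp, and G1 regulators, 1 point per library, CEBPβ in blue and CEBPβ-A in orange. Subunits of one complex differ far more in level than the groups do, as with Mcm3 and Mcm2 or Pold4 and Pold1.

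Ribonucleotide reductase makes deoxynucleotides from a large subunit, Rrm1, and a small subunit, Rrm2, that dividing cells produce in S phase. Rrm1 stood at 2.61, 2.57 and 2.68 FPKM in CEBPβ and at 2.89, 2.61 and 2.91 in CEBPβ-A. Rrm2 stood at 0.962, 0.907 and 1.07 FPKM in CEBPβ and at 1.37, 0.991 and 1.25 in CEBPβ-A. Both groups overlapped for each subunit, and neither gene passed (log2 fold change 0.070 with an SE of 0.085 and limma adjusted p = 0.761 for Rrm1; log2 fold change 0.15 with an SE of 0.098 and limma adjusted p = 0.609 for Rrm2).

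In the G1 machinery all 11 members were tested, 3 with positive and 8 with negative log2 fold changes and a median of −0.15. These members include Cdc37, Cdc37l1 and Cdc73, whose broader work is given below, and the median is the value of Cdc73. The median was −0.017 without CEBPβ-A replicate 3, with 4 positive and 7 negative. Cdk6 (ENSMUSG00000040274.11, GRCm38 chromosome 5, 3341485 to 3531008), a partner of D-type cyclins, stood at 5.21, 5.62 and 4.27 FPKM in CEBPβ replicates 1, 2 and 3 and at 3.84, 4.13 and 2.44 in CEBPβ-A replicates 1, 2 and 3. Every CEBPβ-A library lay below every CEBPβ library, and replicate 3 was the lowest of each group. The CEBPβ mean was 1.45 times the other (3.47 ± 0.904 FPKM in CEBPβ-A against 5.03 ± 0.692 in CEBPβ, SD, 3 libraries each), and the difference did not pass over all genes (log2 fold change −0.45 with an SE of 0.17 and limma adjusted p = 0.588, 95% interval −0.84 to −0.057). Without CEBPβ-A replicate 3 the estimate was nearer to 0 (log2 fold change −0.27 with limma adjusted p = 0.908) and the remaining 2 libraries still lay below all 3 of CEBPβ. An antisense gene overlaps exons of Cdk6, and the sources used here do not say whether the authors counted by strand. Genes on the other strand likewise overlap exons of other members, among them Ccna2, Cdc20, Cdc37l1, Cdc42bpb, Cdc42ep3, Cdc123, Cdk2, Cdk10, Cdkn1a and Mcm9.

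Cdk4, the other kinase of D-type cyclins, had the highest mean of this group (17.7 FPKM, beside 17.6 for Cdc37) and stood at 20.3, 14.99 and 19.3 FPKM in CEBPβ and at 15.1, 17.5 and 19.3 in CEBPβ-A, with overlapping groups (log2 fold change −0.066 with an SE of 0.13 and limma adjusted p = 0.869). Its exons overlap those of Tspan31 on the other strand. Cdk4 exceeded Cdk6 in every library, with Cdk6 at 0.126 to 0.375 of its level. Cdk2, the kinase of cyclin E, had a log2 fold change of −0.25 (2.55 ± 0.244 FPKM in CEBPβ-A against 3.25 ± 0.667 in CEBPβ, SD, 3 libraries each) and overlapping groups. Of the D-type cyclins listed, Ccnd2 ranged over 10.8 to 15.4 FPKM and Ccnd3 over 1.68 to 7.43 FPKM.

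Ccnd3 had the largest pooled coefficient of variation of the members, 50.6% against a median of 10.02% over tested members. This is the SD pooled over the 2 groups, divided by the mean of all 6 libraries. Within CEBPβ alone Cdkn2a spread more, with a highest value 4.10 times the lowest, against 2.95 times for Ccnd3. Ccnd3 stood at 1.68, 3.42 and 4.96 FPKM in CEBPβ replicates 1, 2 and 3 and at 6.95, 2.44 and 7.43 in CEBPβ-A replicates 1, 2 and 3. CEBPβ-A replicates 1 and 3 were above all 3 CEBPβ libraries and CEBPβ-A replicate 2 was below CEBPβ replicates 2 and 3, so the groups overlapped (log2 fold change 0.57 with an SE of 0.40 and limma adjusted p = 0.621). With single libraries left out the log2 fold change of Ccnd3 ran from 0.26 (without CEBPβ replicate 1) to 0.99 (without CEBPβ-A replicate 2), and it was 0.34 without CEBPβ-A replicate 3. Bysl, a ribosome biogenesis gene whose exons overlap those of Ccnd3 on the other strand, stood at 5.88, 5.34 and 5.72 FPKM in CEBPβ and at 5.93, 6.90 and 6.84 in CEBPβ-A and did not follow that pattern, and a processed pseudogene of Ccnd3 is annotated.

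The log2 fold change was 0.064 for Ccne1, a cyclin E gene, −0.095 for Ccnd2, −0.19 for Cdc25a, the phosphatase that activates Cdk2, and −0.16 for Cdc34, the ubiquitin-conjugating enzyme of SCF ligases. Cdc37 and Cdc37l1 are an HSP90 cochaperone for kinases and its relative, and Cdc73 a subunit of the PAF1 transcription complex. Cdc37l1 stood at 3.51, 4.19 and 3.83 FPKM in CEBPβ and at 3.46, 3.13 and 2.78 in CEBPβ-A, without overlap (log2 fold change −0.23 with an SE of 0.10 and limma adjusted p = 0.588), and Cdc37 and Cdc73 had log2 fold changes of 0.10 and −0.15. With CEBPβ-A replicate 3 left out, the log2 fold change was −0.017 for Cdc25a, −0.0067 for Cdc37, 0.017 for Cdc73 and 0.057 for Ccnd2.

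Among the genes with the Cdkn name, 7 of 8 were tested, 2 with positive and 5 with negative log2 fold changes. These counts include Cdkn2aip (−0.19) and Cdkn2aipnl (0.069), which are not CDK inhibitors. Cdkn2c (ENSMUSG00000028551.14, GRCm38 chromosome 4, 109660876 to 109667189), an INK4 protein that binds Cdk4 and Cdk6, stood at 2.48, 2.60 and 2.85 FPKM in CEBPβ replicates 1, 2 and 3 and at 3.87, 3.14 and 3.33 in CEBPβ-A replicates 1, 2 and 3. All CEBPβ-A libraries lay above all CEBPβ libraries, with a mean 1.30 times that of CEBPβ (3.44 ± 0.382 FPKM in CEBPβ-A against 2.64 ± 0.190 in CEBPβ, SD, 3 libraries each). The difference did not pass over all genes (log2 fold change 0.28 with an SE of 0.099 and limma adjusted p = 0.588, 95% interval 0.053 to 0.52), and it was of similar size without CEBPβ-A replicate 3 (log2 fold change 0.30 with limma adjusted p = 0.894). In the same libraries the ratio of Cdkn2c to Cdk6 was 0.476, 0.462 and 0.669 in CEBPβ and 1.01, 0.759 and 1.36 in CEBPβ-A, a pair chosen after its values were seen and given without a test.

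Cdkn1a, the p53 target that encodes p21, was the most abundant inhibitor and stood at 42.7, 45.6 and 48.9 FPKM in CEBPβ and at 46.6, 44.2 and 41.6 in CEBPβ-A. The groups overlapped and the estimate was near 0 (log2 fold change −0.050 with an SE of 0.081 and limma adjusted p = 0.830). Cdkn1b, which encodes p27, had a mean of 5.05 FPKM and a log2 fold change of −0.25. The INK4 genes Cdkn2b and Cdkn2d had log2 fold changes of −0.081 and −0.090, and that of Cdkn2d was −0.27 without CEBPβ-A replicate 3. Cdkn2a, whose locus encodes p16 and p19ARF, stood at 1.16, 0.952 and 0.282 FPKM in CEBPβ and at 1.02, 1.19 and 1.14 in CEBPβ-A. CEBPβ replicate 3 was low while the other 5 libraries lay close together, and a gene-level value cannot separate the products of this locus. Cdkn2aip and Cdkn2aipnl, a binding partner of p19ARF and its relative, are not kinase inhibitors and had log2 fold changes of −0.19 and 0.069.

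The genes of G2 and mitosis had the lowest median level of the roles, 1.26 FPKM, and 7 of 14 were tested. The 2 B-type cyclins, which activate Cdk1 at entry into mitosis, lay higher in every CEBPβ-A library, at levels near 1 FPKM. Ccnb1 (ENSMUSG00000041431.16, GRCm38 chromosome 13, 100778650 to 100786570) stood at 0.746, 0.903 and 0.794 FPKM in CEBPβ replicates 1, 2 and 3 and at 1.16, 0.946 and 1.01 in CEBPβ-A replicates 1, 2 and 3, a mean 1.28 times that of CEBPβ. Ccnb2 (ENSMUSG00000032218.7, GRCm38 chromosome 9, 70407692 to 70421547) stood at 0.896, 0.467 and 0.939 FPKM in CEBPβ replicates 1, 2 and 3 and at 1.23, 1.15 and 1.26 in CEBPβ-A replicates 1, 2 and 3, a mean 1.58 times that of CEBPβ, with CEBPβ replicate 2 the lowest library. Both lay under the filter. In the fit without a filter neither passed (log2 fold change 0.17 with an SE of 0.087 and limma adjusted p = 0.595 for Ccnb1, and log2 fold change 0.33 with an SE of 0.12 and limma adjusted p = 0.595 for Ccnb2). A two-sided exact permutation test on group means gave p = 0.1 for each, the smallest that 3 against 3 allows. Any gene whose groups do not overlap must give this value, so the test adds nothing to the separation. Processed pseudogenes of Ccnb1 and of Ccnb2 are annotated, so reads may be shared between copies. The 2 libraries left without CEBPβ-A replicate 3 also lay above all of CEBPβ for both genes.

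Ccna2, Cdk1, Top2a and Mki67, which also mark dividing cells, did not show this order. Ccna2, the cyclin of S phase and G2, stood at 0.462, 0.442 and 0.858 FPKM in CEBPβ and at 0.736, 0.515 and 1.01 in CEBPβ-A, highest in replicate 3 of each group. Cdk1, the mitotic kinase, stood at 0.743, 0.869 and 0.762 FPKM in CEBPβ and at 1.02, 0.861 and 0.510 in CEBPβ-A, and its highest and lowest values were both in CEBPβ-A. Top2a, which untangles chromosomes, stood at 0.791, 0.637 and 0.921 FPKM in CEBPβ and at 0.914, 0.742 and 0.5001 in CEBPβ-A, lowest in CEBPβ-A replicate 3. Mki67, the proliferation antigen Ki-67, stood at 3.20, 3.16 and 2.95 FPKM in CEBPβ and at 3.41, 2.64 and 2.23 in CEBPβ-A, also lowest there. The groups of all 4 overlapped, and in the fit without a filter the log2 fold changes were 0.14, −0.0053, −0.057 and −0.14, with 95% intervals of −0.19 to 0.47, −0.29 to 0.27, −0.33 to 0.21 and −0.43 to 0.15. The value for Mki67 was −0.035 without CEBPβ-A replicate 3. In bulk RNA, fewer dividing cells and less of a transcript in each cell cannot be told apart.

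CEBPβ-A replicate 3 thus held the highest Ccna2 and Ccnb2 values and the lowest Cdk1, Top2a, Mki67 and Pola1 values of the 6 libraries. The annotated exons of Ccna2 and Ccnb2 span 4083 and 1531 bases and those of Cdk1, Top2a, Mki67 and Pola1 4934, 9013, 10061 and 8813. The part of transcript length in these values was not tested. Cdc20, the activator of the anaphase-promoting complex, ranged from 0.391 to 1.13 FPKM, and subunits of that complex, Cdc16, Cdc23, Cdc26 and Cdc27, had log2 fold changes of 0.024, −0.11, 0.059 and −0.10. Cdc16 was the most abundant of this group and stood at 12.6, 11.2 and 12.4 FPKM in CEBPβ and at 13.3, 11.8 and 11.7 in CEBPβ-A. Cdc25b, a phosphatase that activates Cdk1, had a log2 fold change of 0.16. Of the phosphatase genes Cdc14a and Cdc14b, the first had a mean of 0.552 FPKM and was not tested. The second had a log2 fold change of −0.0099, and of 0.13 without CEBPβ-A replicate 3.

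**Figure D4:**
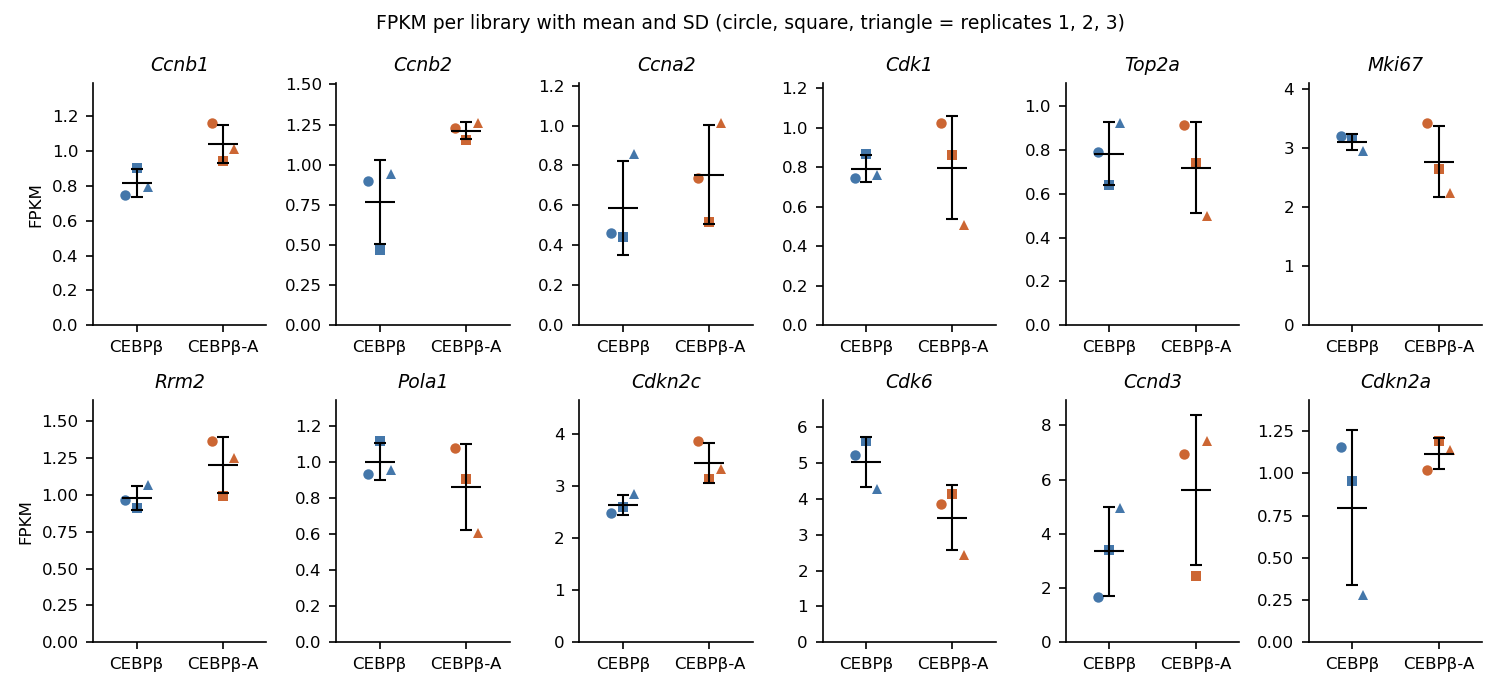
FPKM of 12 members in each library with the mean and SD of each group (n = 3), each axis starting at 0. Ccnb1, Ccnb2, Cdkn2c and Cdk6 separate the groups, while Ccna2, Cdk1, Top2a, Mki67, Rrm2, Pola1, Ccnd3 and Cdkn2a overlap.

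Promoters of genes used in S phase, G2 and mitosis are known for E2F sites, for the cell cycle gene homology region (CHR) and for CCAAT boxes bound by NF-Y. The 250 bases before the RefSeq start (GRCm38.p6) were searched on both strands for E2F as TTTGGCGC, TTTCCCGC, TTTCGCGC or TTTGGCGG, for CHR as TTTGAA and for CCAAT. RefSeq had a promoter for 77 of the 85 members. An E2F match was found in 10 of 77 (12.99%), against 2.0% of 27025 promoters, a CHR match in 14 (18.2%, against 16.3%) and a CCAAT match in 36 (46.8%, against 34.5%). For genes of G2 and mitosis the CHR was matched in 6 of 12 promoters and CCAAT in 9 of 12. For genes of origin licensing and the helicase the E2F letters were matched in 4 of 14 and CCAAT in 9 of 14. Matches are a description of these letters and not sites, and none of the letters overlap one another in the promoters shown. The 5 below are shown because their genes are compared above: the B cyclins and Mcm3, whose groups separated, and Cdk1 and Top2a, whose groups did not. All 5 genes lie on the minus strand, and the sequences run 5′ to 3′ along the gene, ending at the base before the start, with matches in capitals. They cover chr13:100786487-100786736, chr9:70421555-70421804, chr10:69352913-69353162, chr11:99024190-99024439 and chr1:20820313-20820562.
Ccnb1: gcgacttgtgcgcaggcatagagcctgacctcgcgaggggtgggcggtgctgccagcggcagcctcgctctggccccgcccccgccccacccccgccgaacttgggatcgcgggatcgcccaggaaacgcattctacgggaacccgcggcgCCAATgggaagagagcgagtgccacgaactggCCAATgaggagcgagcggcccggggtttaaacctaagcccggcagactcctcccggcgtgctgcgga
Ccnb2: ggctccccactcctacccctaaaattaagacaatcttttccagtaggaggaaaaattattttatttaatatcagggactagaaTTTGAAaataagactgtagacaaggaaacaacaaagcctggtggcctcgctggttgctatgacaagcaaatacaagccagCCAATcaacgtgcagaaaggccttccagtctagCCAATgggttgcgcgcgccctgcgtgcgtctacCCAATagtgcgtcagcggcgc
Cdk1: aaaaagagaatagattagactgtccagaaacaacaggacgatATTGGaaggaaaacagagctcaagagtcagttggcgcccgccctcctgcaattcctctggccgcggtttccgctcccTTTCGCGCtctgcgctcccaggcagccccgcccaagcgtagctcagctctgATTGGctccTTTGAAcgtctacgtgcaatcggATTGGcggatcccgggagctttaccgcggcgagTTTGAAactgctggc
Top2a: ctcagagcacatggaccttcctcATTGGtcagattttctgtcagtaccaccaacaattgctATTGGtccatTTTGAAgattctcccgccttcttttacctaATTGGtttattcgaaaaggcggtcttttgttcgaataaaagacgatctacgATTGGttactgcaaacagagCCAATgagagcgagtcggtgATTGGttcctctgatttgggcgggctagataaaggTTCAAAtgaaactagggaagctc
Mcm3: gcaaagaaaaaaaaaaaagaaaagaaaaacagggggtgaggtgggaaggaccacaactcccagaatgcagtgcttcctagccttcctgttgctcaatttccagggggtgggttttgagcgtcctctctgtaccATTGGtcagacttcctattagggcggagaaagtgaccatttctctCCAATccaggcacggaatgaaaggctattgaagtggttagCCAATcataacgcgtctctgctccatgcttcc

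Ccnb1 thus shows 2 CCAAT matches and Ccnb2 shows 3, with a CHR match in Ccnb2 from 167 to 162 bases before the start. Cdk1 holds all 3 kinds, with CHR matches from 71 to 66 and from 15 to 10 bases before the start. Top2a holds 6 CCAAT and 2 CHR matches and Mcm3 holds 3 CCAAT matches.

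The remaining kinases mostly act outside the division cycle, and of 12 tested members 7 had positive and 5 negative log2 fold changes. Cdk9, the kinase that releases paused RNA polymerase II, was the most abundant and stood at 15.8, 14.98 and 13.6 FPKM in CEBPβ and at 17.2, 14.3 and 17.8 in CEBPβ-A, with overlapping groups (log2 fold change 0.14 with an SE of 0.10 and limma adjusted p = 0.640). Cdk7, Cdk8, Cdk12 and Cdk13, which also act on transcription, had log2 fold changes of 0.070, 0.051, −0.15 and −0.076, the last pair −0.029 and 0.057 without CEBPβ-A replicate 3. Cdk14, a kinase activated by cyclin Y, stood at 2.44, 2.59 and 2.13 FPKM in CEBPβ and at 2.06, 2.13 and 1.39 in CEBPβ-A, without overlap (log2 fold change −0.25 with an SE of 0.13 and limma adjusted p = 0.589). Its log2 fold change was −0.13 without CEBPβ-A replicate 3, the lowest library. Cdk10 stood at 2.92, 2.98 and 3.30 FPKM in CEBPβ and at 2.76, 2.86 and 2.86 in CEBPβ-A, also without overlap (log2 fold change −0.089 with an SE of 0.085 and limma adjusted p = 0.703). Cdk5, Cdk16, Cdk17, Cdk19 and Cdk20 had log2 fold changes between −0.053 and 0.078.

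Genes that carry the Cdc name for other reasons held the highest levels. Cdc42, the small GTPase that organises actin and cell polarity, stood at 207, 228 and 194 FPKM in CEBPβ replicates 1, 2 and 3 and at 222, 225 and 206 in CEBPβ-A replicates 1, 2 and 3, at the 98.6th percentile of listed genes. The groups overlapped (log2 fold change 0.054 with an SE of 0.085 and limma adjusted p = 0.826). Cdc42ep3 (ENSMUSG00000036533.8, GRCm38 chromosome 17, 79334025 to 79355091), an effector of Cdc42 that acts on septins and actin, stood at 56.4, 61.1 and 55.5 FPKM in CEBPβ replicates 1, 2 and 3 and at 63.7, 67.6 and 73.4 in CEBPβ-A replicates 1, 2 and 3. Every CEBPβ-A library lay above every CEBPβ library (68.2 ± 4.88 FPKM in CEBPβ-A against 57.6 ± 2.98 in CEBPβ, SD, 3 libraries each), and the difference did not pass over all genes (log2 fold change 0.24 with an SE of 0.080 and limma adjusted p = 0.588). Without CEBPβ-A replicate 3, the highest library, the log2 fold change was 0.19. Its relative Cdc42ep2 was separated in the other direction, at 12.5, 11.03 and 13.2 FPKM in CEBPβ and at 10.9, 10.2 and 10.9 in CEBPβ-A (log2 fold change −0.18 with an SE of 0.089 and limma adjusted p = 0.589).

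Cdc42bpb, a kinase that binds Cdc42 and acts on myosin, stood at 20.02, 17.9 and 19.3 FPKM in CEBPβ and at 17.6, 17.2 and 14.8 in CEBPβ-A, without overlap (log2 fold change −0.20 with an SE of 0.092 and limma adjusted p = 0.588). Cdc40 and Cdc5l are splicing factors: Cdc40 stood at 7.49, 6.92 and 7.08 FPKM in CEBPβ and at 6.69, 6.69 and 5.25 in CEBPβ-A, without overlap (log2 fold change −0.19 with an SE of 0.11 and limma adjusted p = 0.596), and Cdc5l had a log2 fold change of −0.099. Cdc40 and Cdc42bpb had log2 fold changes of −0.086 and −0.12 without CEBPβ-A replicate 3, and both still lay lower in the remaining CEBPβ-A libraries. Cdc123, which assembles the translation initiation factor eIF2, stood at 8.24, 7.82 and 7.31 FPKM in CEBPβ and at 9.19, 8.56 and 8.91 in CEBPβ-A, higher in every CEBPβ-A library (log2 fold change 0.17 with an SE of 0.082 and limma adjusted p = 0.588). The other Cdc42 partners Cdc42bpa, Cdc42bpg, Cdc42ep4, Cdc42se1 and Cdc42se2 had log2 fold changes from −0.20 to 0.095 and overlapping groups, as did Cdc42ep5, which was not tested.

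Members with a long annotated exon length, the union of all exons of the gene, tended to the lower side in CEBPβ-A, as did such genes in the whole table. Across the 74 tested members, log2 fold change and annotated exon length had a Spearman rho of −0.38, and across 9600 tested genes with a length it was −0.48, where genes share the same 6 libraries. Without CEBPβ-A replicate 3 the values were −0.11 and −0.30, and 14 of the 74 log2 fold changes took the other sign, the largest of them that of Cdc73. Exon length was 13989 bases for Cdk6, 18877 for Cdk14, 12214 for Cdc37l1 and 7375 for Cdc42bpb, all lower in CEBPβ-A, and 2686 for Cdkn2c, 2309 for Cdc42ep3 and 2400 for Pcna, all higher. Other members without overlap went against the trend: Cdc42ep2 (3411 bases) and Cdk10 (4304) lay lower, and Pold3 (4601) lay higher. The median tested gene had 4378 bases. CEBPβ-A replicate 3 was the lowest library for 32 of the 85 members (37.6%) and for 35.8% of all listed genes. Among tested members at or above the median length it was lowest for 20 of 38 (52.6%), near the 54.0% of all tested genes of such length. Among the shorter tested members it was lowest for 7 of 36 (19.4%), near the 17.5% of all shorter tested genes. The part of transcript length or RNA quality in the differences named above was not tested.

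**Figure D5:**
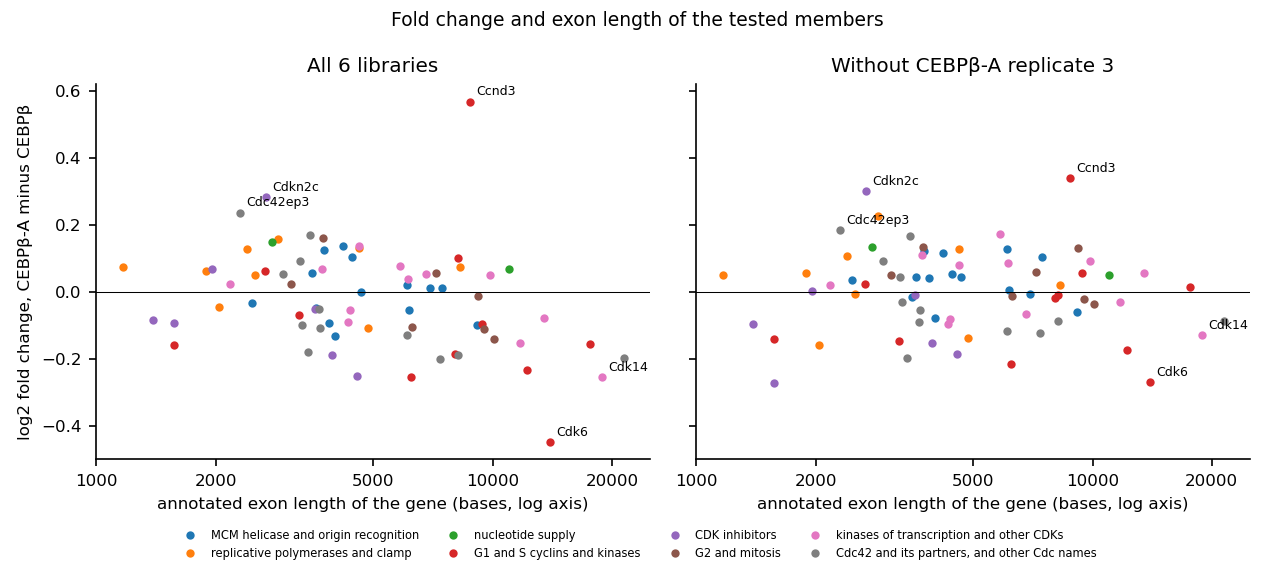
Log2 fold change (CEBPβ-A minus CEBPβ) of the 74 tested members against the annotated exon length of each gene (bases, log axis), with all 6 libraries and without CEBPβ-A replicate 3. Long genes such as Cdk6 and Cdk14 lie lower on the left, and the slope is flatter on the right (Spearman rho −0.38 and −0.11).

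Beyond the members, 8 lists of other cell cycle genes were read from the same fit. Of 143 genes listed 119 were in the table and 98 were tested, and 0 passed in either direction. The groups did not overlap for 16 of the 119 (13.4%, against 16.7% of all listed genes), 9 higher and 7 lower in CEBPβ-A. An unadjusted p under 0.05 was reached by 4 of 98 (4.08%, against 8.18% of all tested genes), 3 with higher and 1 with lower means in CEBPβ-A, and 49 had positive and 49 negative log2 fold changes. The lower gene was Gadd45a, a stress sensor that binds PCNA and restrains Cdk1, at 9.13, 9.13 and 10.1 FPKM in CEBPβ replicates 1, 2 and 3 and at 5.80, 7.04 and 7.15 in CEBPβ-A replicates 1, 2 and 3. Its groups did not overlap, and it did not pass (6.66 ± 0.749 FPKM in CEBPβ-A against 9.46 ± 0.573 in CEBPβ, SD, 3 libraries each, and log2 fold change −0.45 with an SE of 0.10 and limma adjusted p = 0.588). The 3 higher genes were Lin37, a subunit of the MuvB complex that binds CHR elements, the single-strand binding protein gene Rpa2 and the clamp loader subunit Rfc3. Lin37 stood at 8.94, 7.74 and 9.09 FPKM in CEBPβ and at 10.6, 9.96 and 10.6 in CEBPβ-A. Rpa2 stood at 2.46, 1.91 and 2.24 FPKM in CEBPβ and at 3.06, 2.59 and 2.89 in CEBPβ-A. Rfc3 stood at 1.88, 1.87 and 2.25 FPKM in CEBPβ and at 2.82, 2.24 and 2.61 in CEBPβ-A, with CEBPβ-A replicate 2 just below CEBPβ replicate 3, and the 3 log2 fold changes were 0.25, 0.27 and 0.25 (limma adjusted p = 0.588 for each).

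In the list of replication fork and licensing genes 17 of 27 tested had positive log2 fold changes, with a median of 0.031. The fork subunit Gins1 and the licensing inhibitor Gmnn had log2 fold changes of 0.23 and 0.23, and the CEBPβ-A libraries of both lay above all of CEBPβ. Chaf1b of the same list (log2 fold change −0.16) was separated the other way. In the list of other cyclins 8 of 10 had negative log2 fold changes, with a median of −0.14. Of the 10, 4 lay lower in every CEBPβ-A library (background 9.04%) and 0 lay higher (background 7.62%). Without CEBPβ-A replicate 3 this list still had 8 negative values, with a median of −0.11. Ccnt2 and Ccnt1, partners of Cdk9, had log2 fold changes of −0.29 and −0.24. The E2F, pocket protein and MuvB genes had a median log2 fold change of −0.043, E2f2 at 0.17 and Rb1 at −0.23. Checkpoint and p53 genes had a median log2 fold change of −0.032, with the DNA damage kinase Atm at −0.42. The 5 tested mitotic kinase and spindle genes had a median of 0.12, with Bub1b, a spindle checkpoint kinase, at −0.15. The median was 0.022 for ubiquitin ligase genes of the APC/C and SCF, with Anapc13 at 0.26. It was −0.063 for cohesin and condensin genes, with Smc2 at −0.17, and −0.042 for nucleotide enzymes, with Dck at −0.24. None of these genes passed. Without CEBPβ-A replicate 3 the median of the cohesin and condensin list was 0.0087, that of the checkpoint list −0.0061 and that of the E2F list −0.021. The log2 fold changes were then 0.0087 for Smc2, −0.075 for Dck, −0.23 for Atm, −0.094 for Rb1, −0.14 for Ccnt2, −0.15 for Ccnt1, −0.089 for Bub1b and 0.16 for Anapc13. The median over fork and licensing genes was 0.056 without that library.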

How the data were processed

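RNA was sequenced from 6 libraries, 3 per group, after TRIzol extraction and stranded KAPA library preparation, per the labels' protocols. The authors deposited 1 table of FPKM values for 10539 protein-coding genes, per the file headers, and GRCm38 is named in the submitters' processing notes. The header announces 9 columns of FPKM and the table used here holds 6, all of which were used. The aligner, the counting program and the gene lengths are not given in these sources, and since only FPKM was used, depth is unknown and no counting interval is given.

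Genes with a mean of at least 1 FPKM (9617) were fitted with limma 3.58.1 (R 4.3.3) on log2(FPKM + 1) with an intensity trend and no covariate. The log2(FPKM + 1) scale understates changes of low genes. P-values are two-sided, Benjamini-Hochberg adjusted over all tested genes, with a threshold of 0.05. The fit was tested on simulated data. Refits used a pseudocount of 0.1 or 0.5, a mean of at least 5 FPKM, no filter, median-of-ratios and quantile scaling, no trend, the replicate number as a block and each library left out. Exon lengths are unions of GENCODE M21 exons and promoters are RefSeq's.

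Values in every library are given for members with an unadjusted p under 0.05, without overlap, highest in their role, near 1 FPKM or known to mark division. They are also given for Ccnd3, where values were seen first. The members, lists and rules were chosen with earlier results of these data known.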

Additional observations from a re-analysis of the deposited data

How the results depend on the processing

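Of the 85 members, 0 passed the adjusted threshold under any alternative, and the lowest adjusted p of a member was 0.372, under the replicate block. The count over all genes, 5, was 0 with a mean of at least 5 FPKM, 2 after quantile normalization, 1 with the replicate block and 1 to 9 with single libraries left out (9 without CEBPβ-A replicate 3). The median log2 fold change of the members, −0.020, moved by more than its spread between libraries (SD 0.0223) to 0.023 with a mean of at least 5 FPKM (36 members tested) and to 0.014 after quantile normalization, and ran from −0.037 to 0.012 with single libraries left out (highest without CEBPβ-A replicate 3). Its sign is thus not stable. Over all 74 tested members, 4 to 8 log2 fold changes took the other sign when a library other than CEBPβ-A replicate 3 was left out, and 14 without that library. For the 24 tested members with values given by rule, 6 of 325 alternative values changed sign. These were Cdc42 at −0.034 after quantile normalization and, with single libraries left out, Cdc42 (range −0.00070 to 0.11), Cdc16 (−0.029 to 0.056) and Cdk4 (−0.19 to 0.024). Ccna2, Ccnb1, Ccnb2, Cdk1, Top2a and Cdkn2a lay under the filter and were not part of this count. The count of members with an unadjusted p under 0.05, added after seeing the data, was 5 with the replicate block and 1 with a mean of at least 5 FPKM. The numbers do not clearly pair the libraries (Pearson r of same-numbered deviations 0.0993, 0.247 and 0.259), although each library correlated best with its own number. Members near 1 FPKM are limited by unknown depth.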
